A study of Rattus norvegicus with 10 samples.

Results

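The genes described are the TRIM family ubiquitin ligases, taken as the 38 rows of the deposited table of 16041 genes whose symbol is Trim followed by a number and, at most, 1 letter. The rule uses names only, not values. They were read by RNA sequencing in prefrontal cortex tissue of male Sprague-Dawley rats, in 5 control libraries and 5 libraries of the early life stress group (ELS). In that group nest material was kept scarce for dam and pups, the limited nesting model, from postnatal day 2 to day 9. Tissue of both groups was taken at postnatal day 91, and no genotype or drug sets the groups apart. The labels do not give the litters. Each p-value therefore sets the difference between the groups against the spread between libraries within a group, with every library taken as independent.

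TRIM proteins share an N-terminal tripartite motif, a RING finger followed by B-box zinc fingers and a coiled coil, and differ in what follows it. The RING finger recruits a ubiquitin-conjugating enzyme, the coiled coil pairs 2 chains, and the C-terminal domain picks the substrate. In the brain, members with NHL repeats and members with a COS box act on neurofilaments, axonal microtubules and synaptic scaffolds, a trio with a PHD finger and bromodomain represses transcription, and many members with a PRY-SPRY domain serve antiviral defence.

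Library totals ran from 18838898 to 22311136 reads, and levels are in RPKM, reads scaled to gene length and to the library total, with the SD over the 5 libraries of a group after each mean. The tissue held its defining transcripts, since 0 of 6 projection neuron markers and 0 of 6 interneuron markers were at 0. Glial and blood markers were lower in ELS: 7 of 7 mature oligodendrocyte markers, 6 of 6 astrocyte markers, 7 of 7 microglia markers and 4 of 4 red blood cell rows had lower means. The summed oligodendrocyte markers were at 1103 to 2270 RPKM in controls against 833 to 1085 in ELS, the summed astrocyte markers at 933 to 1143 and 791 to 871, and the summed red blood cell rows at 412 to 981 and 214 to 438. Summed microglia markers were at 87.4 to 105.4 and 78.4 to 93.1 RPKM, summed projection neuron markers at 445.4 to 533.3 and 497.5 to 548.7, and summed interneuron markers at 192.6 to 367.2 and 338.9 to 382.9. Of the 2 measured endothelial markers 1 was lower, with sums of 9.88 to 12.95 and 10.5 to 13.3 RPKM, and the 2 measured skeletal muscle markers summed to 8.85 to 11.4 and 9.38 to 10.2. Means were higher in ELS for 5 of 6 projection neuron markers and for 5 of 6 interneuron markers. Control replicate 4 stood apart, with the highest oligodendrocyte, astrocyte and microglia sums of the 10 libraries. It also had the lowest interneuron, endothelial and skeletal muscle sums of the 10, and the highest projection neuron sum of the controls. ELS replicate 2 had the highest oligodendrocyte, microglia and red blood cell sums and the lowest neuron sums of its group. The part that these markers play in the TRIM values was not tested, and in bulk tissue fewer cells of a type and less RNA per cell cannot be told apart.

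The adult cortex held TRIM transcripts over a wide range of levels. Trim9, a ligase of axons and presynaptic terminals that binds the netrin receptor DCC, was the most abundant, at 60.6 ± 7.36 RPKM in controls. It was followed by Trim35, a PRY-SPRY member, at 44.0 ± 3.96, by Trim2, the ligase of the neurofilament light chain, at 39.3 ± 4.28, and by Trim37, a MATH-domain ligase of peroxisomes and centrioles, at 38.8 ± 3.33. These 3 neighbours in the order overlapped across the control libraries. Trim44, which lacks a RING finger, and Trim28, the corepressor of KRAB zinc finger proteins also called KAP1, came next at 33.8 ± 2.61 and 33.2 ± 2.10 and overlapped as well. Trim3, Trim8, Trim32 and Trim23 made up the rest of the 10 members with a mean of at least 20 RPKM, and these 10 held 75.1% of the summed RPKM of the family. At the other end, 21 members had a mean under 5 RPKM, among them the interferon-induced antiviral genes Trim21, Trim25 and Trim34.

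**Figure D1:**
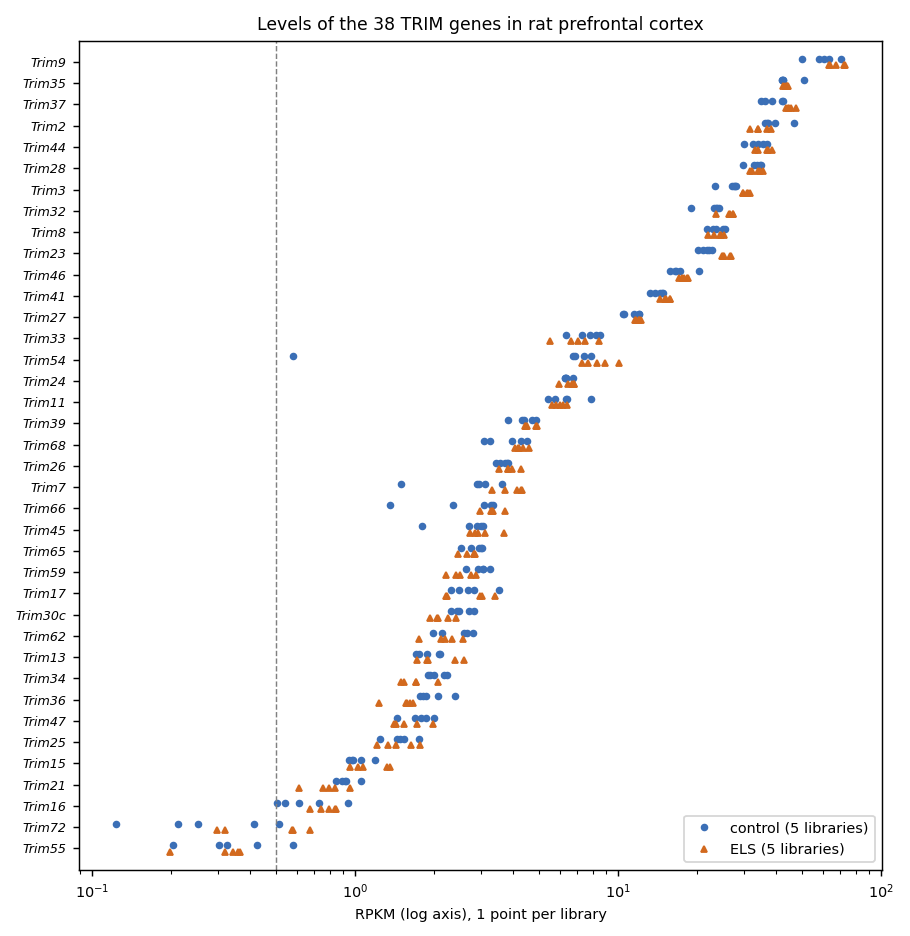
Level of each of the 38 TRIM genes in each library, on a logarithmic RPKM axis, ordered by the mean over all 10 libraries. Circles are the 5 control and triangles the 5 ELS libraries, and the dashed line marks 0.5 RPKM, the minimum for testing. Trim9 leads, Trim72 and Trim55 lie mostly left of the line, and 1 control library of Trim54 lies far below its other libraries.

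A gene was tested when it reached 0.5 RPKM in 5 or more libraries, which 36 of the 38 members did. The 2 that did not are muscle genes, Trim72, which seals damaged muscle membrane, and Trim55, which binds titin. Trim72 was at 0.123 to 0.512 RPKM in controls against 0.299 to 0.675 in ELS, and Trim55 at 0.203 to 0.581 and 0.197 to 0.365. These values rest on a mean of 19.3 reads for Trim72 and 18.5 for Trim55. The tested members rest on a mean of 32 reads for Trim15 up to 4834 for Trim2.

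Differences between the groups were small across the family. Each log2 fold change, or log2 ratio, sets ELS over control after taking log2(RPKM + 0.1), a scale that understates the change of a low gene, and p-values are from limma, adjusted by Benjamini-Hochberg over the 14642 genes tested. With all 10 libraries 0 of the 36 tested members passed an adjusted p of 0.05, against 0.0% of all genes. At an unadjusted p under 0.05 there were 10 members, or 27.8%, against 20.4% of all genes tested. Of these, 6 had higher means in ELS (16.7%, against 10.1% of all genes) and 4 had lower means (11.1%, against 10.3%). The count of 10 members was 6 without ELS replicate 3 and 6 without ELS replicate 4. The share of all genes fell as well, from 20.4% to 15.1% and 14.6%. The 4 lower members were 2 without any 1 of control replicates 1, 3 and 4 and ELS replicates 1, 3 and 4. In these 6 fits 14.6% to 21.7% of all genes were under 0.05 in either direction. Limma-voom on the recovered reads also gave 0 members past the adjusted threshold, and limma-voom with sample quality weights gave 2, Trim23 and Trim3, both with higher means in ELS, where it called 7.34% of all genes and 2.19% as higher. The median log2 fold change of the 36 members was 0.06, beside 0.00371 for all genes, and 22 members had a value above 0 (61.1%, against 50.6% of all genes). In absolute size the median was 0.14 on the log2 scale for the members and 0.12 for all genes.

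**Figure D2:**
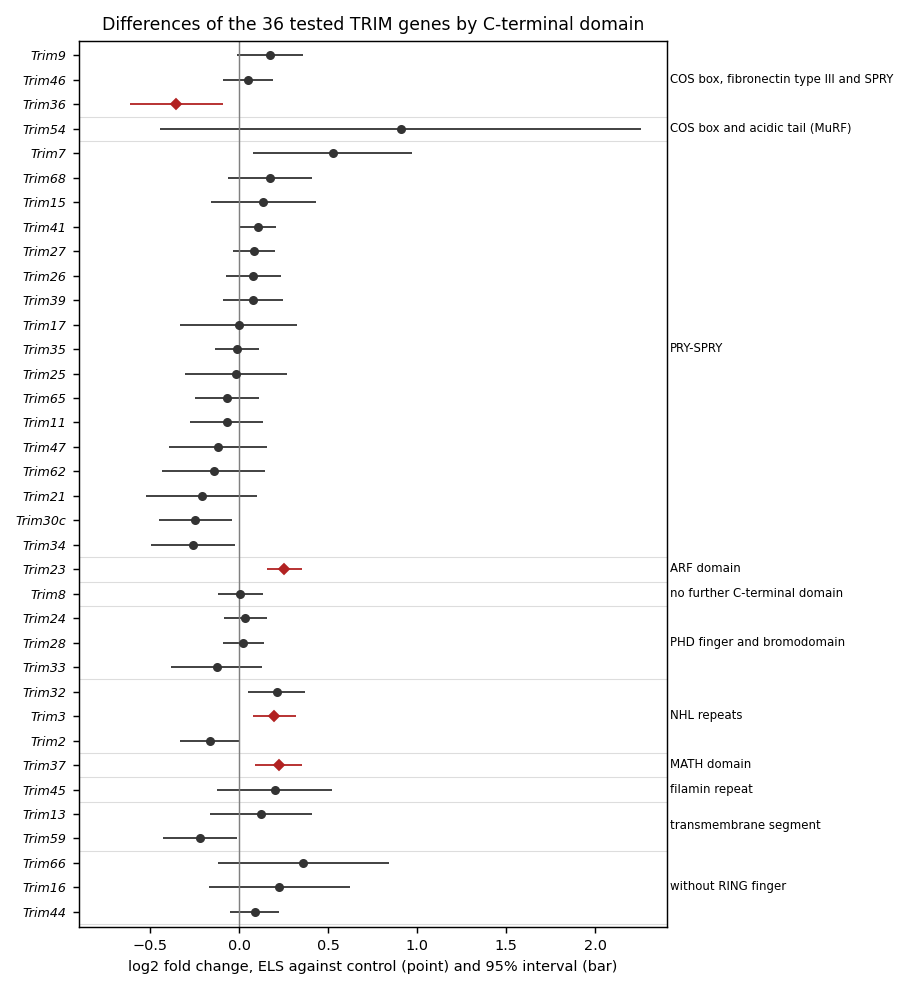
Log2 fold change of ELS against control for the 36 tested TRIM genes (points) with the 95% interval from limma (bars), grouped by the domain that follows the tripartite motif, named at the right. Diamonds mark Trim23, Trim37, Trim3 and Trim36, the members whose ELS libraries all lay beyond every control library. Most intervals span 0.

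Summed over all 38 members, the RPKM was 463.5, 467.9, 451.4, 445.9 and 471.3 in control replicates 1 to 5. In ELS replicates 1 to 5 it was 484.1, 480.7, 483.6, 501.7 and 491.7. Each ELS library thus lay above every control library, with means of 460.0 ± 10.9 and 488.4 ± 8.49 RPKM, and this sum is given as a description with no test. The share of a library's reads that fell in the listed genes was 71.1% to 72.4% in controls and 71.8% to 73.7% in ELS. Its part in the sum was not tested. Of the 10 most abundant members, which hold most of the summed RPKM, Trim9, Trim37, Trim44, Trim28, Trim3, Trim32, Trim8 and Trim23 had higher and Trim35 and Trim2 had lower means in ELS.

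In 4 members, 11.1% of those tested, the groups did not overlap, against 5.68% of all genes: 3 were higher in ELS (8.33%, against 3.08%) and 1 was lower (2.78%, against 2.6%). Trim23, which carries an ARF-type GTPase domain and switches on the kinase TBK1 during autophagy, was at 22.3, 22.7, 21.1, 20.1 and 21.9 RPKM in control replicates 1 to 5. In ELS replicates 1 to 5 it was at 24.99, 24.9, 25.3, 26.9 and 26.7. The groups were separate, with every ELS library above the highest control. The means were 21.6 ± 1.04 and 25.8 ± 0.988 RPKM, 19.3% higher in ELS, with a log2 fold change of 0.25 ± 0.05 (SE; adjusted p = 0.133). Without ELS replicate 2 it passed as the 1 member called (adjusted p = 0.0293), where 3.03% of all genes were called and 0.929% were called higher. Without both ELS replicate 2 and control replicate 4 it was 1 of 4 members called (adjusted p = 0.0173), all 4 with higher means, where 7.62% of all genes were called and 3.5% were called higher. The others were Trim3, Trim32 and Trim7. ELS replicate 2 was the ELS library nearest to the controls for each of these 4, so leaving it out alone raises their differences by construction.

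Trim37 was at 42.3, 38.6, 36.3, 34.8 and 41.9 RPKM in control replicates 1 to 5 and at 44.8, 44.2, 43.5, 47.6 and 45.3 in ELS replicates 1 to 5. The lowest ELS library lay just above the highest control. The means were 38.8 ± 3.33 and 45.1 ± 1.55 RPKM, a log2 fold change of 0.22 ± 0.06 (SE; adjusted p = 0.133).

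Trim3, an NHL-repeat ligase of neurons that acts on the postsynaptic scaffold GKAP, was at 27.1, 27.7, 28.0, 23.3 and 27.9 RPKM in control replicates 1 to 5. In the ELS replicates it was at 31.0, 29.7, 29.8, 31.1 and 31.7. The groups were again separate, and control replicate 4 was the lowest library. The means were 26.8 ± 1.96 and 30.7 ± 0.860 RPKM, a log2 fold change of 0.20 ± 0.05 (SE; adjusted p = 0.133). Without both ELS replicate 2 and control replicate 4 the log2 fold change was 0.16 (adjusted p = 0.0325). That fit called 7.62% of all genes and 3.5% as higher.

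Trim32, the NHL-repeat member known from neural progenitor fate and from limb-girdle muscular dystrophy, was at 24.2, 23.8, 23.3, 18.9 and 23.7 RPKM in controls. In ELS it was at 26.4, 23.6, 26.7, 27.3 and 27.4. Here 4 of 5 ELS libraries exceeded every control, and ELS replicate 2 lay within the control range. The log2 fold change was 0.21 ± 0.07 (SE; adjusted p = 0.166), and without both ELS replicate 2 and control replicate 4 it was 0.18 (adjusted p = 0.0208). The fit without both called 7.62% of all genes and 3.5% as higher, and it leaves out the 1 ELS library that lay within the control range.

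Trim7, a PRY-SPRY ligase that binds glycogenin, was at 2.97, 2.90, 3.12, 1.49 and 3.61 RPKM in the controls and at 3.73, 3.32, 4.32, 4.29 and 4.14 in ELS. Control replicate 4 was far below the others, and 4 of 5 ELS libraries exceeded every control. The log2 fold change was 0.52 ± 0.20 (SE; adjusted p = 0.192). Leaving out control replicate 4 gave 0.32 (adjusted p = 0.125), and 0.38 was reached without both that library and ELS replicate 2 (adjusted p = 0.0409). The fit without both called 7.62% of all genes and 3.5% as higher. The remaining member at an unadjusted p under 0.05 with a higher mean, Trim41, a neighbour of Trim7 named here after its values were seen, was at 13.3 to 14.8 RPKM in controls against 14.4 to 15.8 in ELS (log2 ratio 0.10 ± 0.05, SE; adjusted p = 0.237).

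**Figure D3:**
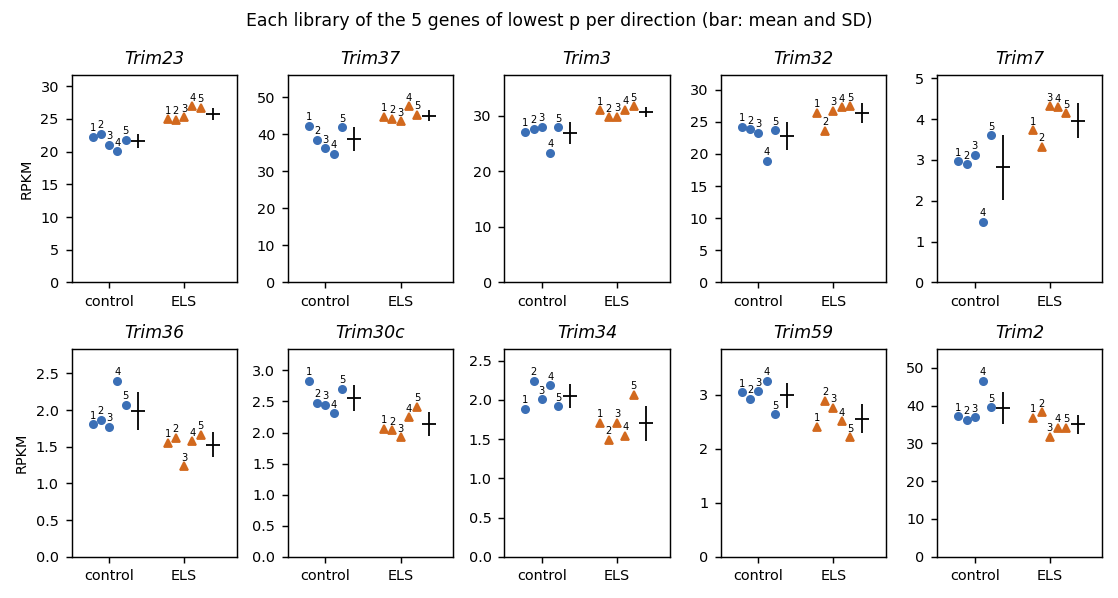
RPKM of the 5 TRIM genes of lowest p in each direction, with higher means in ELS in the upper row and lower means in the lower row. Circles are control and triangles ELS libraries, the digit above each is its replicate number, and the bar gives the mean and SD of the group. Control replicate 4 is the lowest control for each gene of the upper row and ranks highest for Trim36, Trim59 and Trim2.

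On the lower side, Trim36, a microtubule-binding member with a COS box, was at 1.81, 1.87, 1.77, 2.402 and 2.07 RPKM in control replicates 1 to 5. In the ELS replicates it was at 1.56, 1.62, 1.24, 1.57 and 1.66. Every ELS library lay below the lowest control. The means were 1.98 ± 0.261 and 1.53 ± 0.170 RPKM, a difference of -22.9%, with a log2 fold change of -0.35 ± 0.12 (SE; adjusted p = 0.162) on a mean of 101.3 reads.

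Trim30c and Trim34 are PRY-SPRY genes with close copies in rodents, so the split of reads between copies is uncertain. Trim30c was at 2.84, 2.48, 2.45, 2.31 and 2.71 RPKM in the controls and at 2.06, 2.04, 1.93, 2.25 and 2.41 in ELS (log2 ratio -0.25 ± 0.09, SE; adjusted p = 0.183). Trim34 was at 1.89, 2.25, 2.00, 2.18 and 1.92 RPKM in the controls and at 1.71, 1.49, 1.71, 1.54 and 2.06 in ELS (log2 ratio -0.26 ± 0.11, SE; adjusted p = 0.214). In both genes 4 of 5 ELS libraries were below every control, and ELS replicate 5 was the exception. Trim21, the cytosolic antibody receptor of the same PRY-SPRY class, also had 4 of 5 ELS libraries below the controls, at 0.844 to 1.05 RPKM in controls against 0.610 to 0.956 in ELS. Its log2 fold change was -0.21 ± 0.14 (SE; adjusted p = 0.419) and -0.13 without ELS replicate 4, and it is named here after its values were seen.

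Trim59, a membrane-anchored member, was at 3.05, 2.93, 3.07, 3.27 and 2.64 RPKM in the controls and at 2.41, 2.89, 2.76, 2.51 and 2.22 in ELS. The groups overlapped, with 3 of 5 ELS libraries below the lowest control (log2 ratio -0.22 ± 0.09, SE; adjusted p = 0.223). Its class mate Trim13, a ligase of the endoplasmic reticulum, was at 2.08, 2.10, 1.703, 1.88 and 1.75 RPKM in the controls and at 1.87, 1.71, 1.90, 2.59 and 2.41 in ELS (log2 ratio 0.12 ± 0.13, SE; adjusted p = 0.622). Its log2 ratio was 0.04 without ELS replicate 4, 0.07 without ELS replicate 5 and 0.19 without ELS replicate 2.

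Trim2 was at 37.1, 36.3, 37.0, 46.6 and 39.5 RPKM in the controls and at 36.8, 38.3, 31.7, 34.2 and 34.1 in ELS. Its highest value was that of control replicate 4, and 3 of 5 ELS libraries were below every control. The log2 fold change was -0.16 ± 0.08 (SE; adjusted p = 0.260), and it was -0.10 without control replicate 4 (adjusted p = 0.329). The 3 members with NHL repeats thus had means on both sides, with Trim3 and Trim32 higher and Trim2 lower, and whether their differences differ from each other was not tested.

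For Trim9 and Trim35, the 2 most abundant members, the difference lay within the spread between libraries. Trim9 was at 60.9, 63.2, 58.3, 50.1 and 70.4 RPKM in the controls and at 63.2, 67.1, 72.3, 73.2 and 64.1 in ELS. Its log2 fold change was 0.17 ± 0.08 (SE; adjusted p = 0.272, 95% interval -0.01 to 0.36), and it was 0.11 without control replicate 4 (adjusted p = 0.359). Trim35 was at 42.0, 42.5, 42.1, 51.1 and 42.5 RPKM in the controls and at 43.9, 43.0, 43.9, 42.5 and 44.3 in ELS, so that all libraries but control replicate 4 lay within a narrow band. Its log2 fold change was -0.01 (adjusted p = 0.913), and it was 0.04 without that library (adjusted p = 0.452).

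Trim46, which bundles microtubules at the axon initial segment, was at 17.3 ± 1.74 RPKM in controls against 17.8 ± 0.567 in ELS (log2 ratio 0.05, 95% interval -0.09 to 0.19). The intervals of the nuclear trio spanned 0 as well. Trim28 was at 33.2 ± 2.10 and 33.7 ± 1.55 RPKM (log2 ratio 0.02, 95% interval -0.09 to 0.14), and Trim24, a nuclear receptor cofactor, at 6.40 ± 0.205 and 6.55 ± 0.352 (0.03, 95% interval -0.09 to 0.15). Trim33, which ubiquitinates SMAD4, was at 7.65 ± 0.874 and 7.02 ± 1.07 RPKM (-0.13, 95% interval -0.38 to 0.13), with a log2 ratio of -0.05 without ELS replicate 3, -0.19 without control replicate 4 and -0.20 without ELS replicate 2. Trim8 was at 23.8 ± 1.496 and 23.9 ± 1.39 RPKM, and Trim44 at 33.8 ± 2.61 and 35.9 ± 2.19. Of the 17 tested PRY-SPRY members 7 had a log2 fold change above 0 and 10 below 0, with a median of -0.01. Trim25, which ubiquitinates the viral RNA sensor RIG-I, was at 1.49 ± 0.182 and 1.47 ± 0.223 RPKM, and Trim26, Trim27 and Trim39 at 3.66 ± 0.158, 11.3 ± 0.786 and 4.42 ± 0.403 in controls and 3.88 ± 0.273, 11.9 ± 0.262 and 4.65 ± 0.239 in ELS.

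Each of the other tested members had an interval that spanned 0. Among PRY-SPRY genes with a log2 ratio below 0, Trim11 was at 5.43 to 7.87 RPKM in controls against 5.62 to 6.396 in ELS (log2 ratio -0.07), and its neighbour Trim17 at 2.32 to 3.54 against 2.22 to 3.399 (-0.0027). Trim62, Trim47 and Trim65 had log2 ratios of -0.14, -0.12 and -0.07 at control means of 2.44, 1.75 and 2.86 RPKM. Trim68 and Trim15 had ratios of 0.17 and 0.14 at control means of 3.82 and 1.03 RPKM. Trim45, the member with a filamin repeat, was at 1.80 to 3.05 RPKM in controls against 2.73 to 3.68 in ELS (0.20 ± 0.15, SE), and its log2 ratio was 0.07 without control replicate 4. All 3 members without a RING finger had higher means, with Trim16 at 0.503 to 0.937 RPKM in controls against 0.673 to 0.842 in ELS (0.23 ± 0.18, SE).

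Control replicate 4 was the library most often at an extreme, in the family as among all genes tested. It was the lowest or highest of the 10 libraries for 18 of the 36 tested members and for 47.7% of all genes tested. The other libraries were extreme for 1 of the 36 (control replicate 3, against 19.3% of all genes) to 12 (ELS replicate 4, against 23.0%). Trim54, a COS-box member of the muscle-type MuRF branch, was at 7.396, 6.71, 7.88 and 6.86 RPKM in control replicates 1, 2, 3 and 5 but at 0.579 in control replicate 4, which held 20 reads against 209 to 242 in the other controls. It was at 7.31 to 10.1 RPKM in ELS. Its log2 fold change of 0.91 ± 0.61 (SE; adjusted p = 0.422) was 0.22 without that library (adjusted p = 0.207). Trim66, a PHD-bromodomain member without a RING finger, was at 1.36 RPKM in control replicate 4, 2.36 to 3.36 in the other controls and 2.99 to 3.70 in ELS, and its log2 fold change moved from 0.36 (adjusted p = 0.368) to 0.14 (adjusted p = 0.485) without that library.

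**Figure D4:**
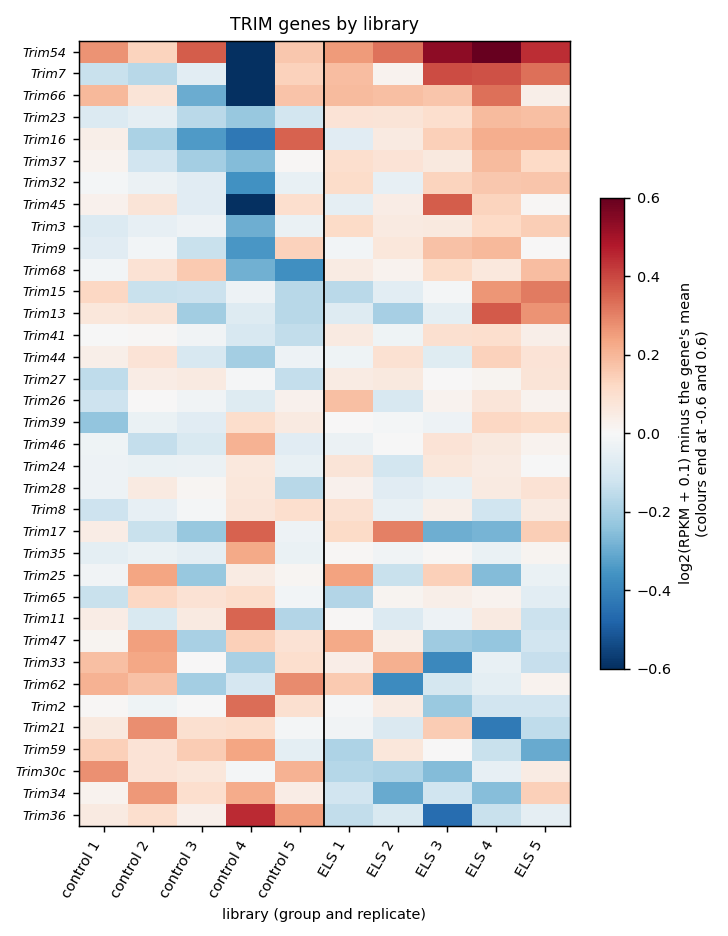
Heat map of the 36 tested TRIM genes (rows, ordered by log2 fold change) in the 10 libraries (columns), coloured by log2(RPKM + 0.1) minus the gene's mean over all libraries, red for higher and blue for lower. Control replicate 4 shows the deepest colours among the controls, with Trim54, Trim7, Trim66 and Trim45 low and Trim36, Trim11 and Trim2 high.

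Among the 10 members at an unadjusted p under 0.05, ELS replicates 1 and 4 lay beyond every control in the direction of the group for all 10, ELS replicate 3 for 9, ELS replicate 5 for 8 and ELS replicate 2 for 6. These members were chosen by the same difference between the groups, so the counts are a description. ELS replicate 2 was the ELS library nearest to the controls for Trim23, Trim3, Trim32, Trim7, Trim41 and Trim59. ELS replicate 5 was nearest for Trim36, Trim30c and Trim34, and ELS replicate 3 for Trim37. Replicate spread was modest, with a median coefficient of variation over the tested members of 9.48% in controls, 7.31% in controls without control replicate 4 and 7.17% in ELS.

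Start-site sequences were looked at for the members with the clearest differences, to see whether genes on the same side share letters there. RefSeq (build GRCr8) gave a sequence for 32 of the 38 members by symbol, and Trim3, Trim15, Trim35, Trim39, Trim46 and Trim55 are named only. The 250 bases before the start are printed 5′ to 3′ on the gene's strand, with motif matches in capitals, for Trim23, Trim37 and Trim32 (higher means in ELS) and Trim36 (lower).
Trim23, chr2:37035943-37036192 (plus strand, GRCr8): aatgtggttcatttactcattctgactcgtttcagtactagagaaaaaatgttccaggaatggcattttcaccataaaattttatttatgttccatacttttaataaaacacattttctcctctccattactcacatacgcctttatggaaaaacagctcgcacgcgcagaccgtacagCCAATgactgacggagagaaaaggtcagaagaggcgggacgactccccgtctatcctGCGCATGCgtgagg
Trim37, chr10:72440422-72440671 (plus strand, GRCr8): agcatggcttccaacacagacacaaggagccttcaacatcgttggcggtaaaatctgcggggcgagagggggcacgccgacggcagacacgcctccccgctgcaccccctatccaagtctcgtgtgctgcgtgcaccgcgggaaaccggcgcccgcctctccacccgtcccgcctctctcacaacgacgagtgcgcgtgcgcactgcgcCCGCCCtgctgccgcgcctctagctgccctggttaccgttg
Trim32, chr5:84020382-84020631 (plus strand, GRCr8): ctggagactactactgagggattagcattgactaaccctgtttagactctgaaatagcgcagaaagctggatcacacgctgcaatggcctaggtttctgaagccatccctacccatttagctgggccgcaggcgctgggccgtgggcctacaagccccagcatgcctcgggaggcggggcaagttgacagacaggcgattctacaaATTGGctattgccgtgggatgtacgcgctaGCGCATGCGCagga
Trim36, chr18:41099498-41099747 (minus strand, GRCr8): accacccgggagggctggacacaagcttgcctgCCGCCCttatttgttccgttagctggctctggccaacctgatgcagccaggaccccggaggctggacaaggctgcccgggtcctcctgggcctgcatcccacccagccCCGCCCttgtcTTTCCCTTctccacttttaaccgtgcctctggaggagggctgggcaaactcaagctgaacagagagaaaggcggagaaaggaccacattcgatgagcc
The motifs searched on both strands were the GC box GGGCGG, the CCAAT box CCAAT, the NRF1 core GCGCATGC, the ETS core CCGGAAG, the cAMP response element TGACGTCA, the IRF core AANNGAAA of interferon regulatory factors and the glucocorticoid receptor core AGAACA. No motif contains another, although matches can overlap in a sequence.

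Trim23 and Trim32 both held an NRF1 core 14 to 7 bases before the start, and in Trim32 the core overlaps a copy on the other strand. That core was found in these 2 of the 32 members, or 6.25%, and in 2.20% of all 33469 promoters of the same length. Both also held a CCAAT box, at 71 to 67 bases before the start of Trim23 and, reversed, at 44 to 40 in Trim32. Trim37 held 1 reversed GC box, and Trim36 held 2 reversed GC boxes and a reversed IRF core. A GC box was present in 17 members (53.1%, against 30.5% of all promoters), a CCAAT box in 13 (40.6%, against 34.0%), an ETS core in 2 (6.25%, against 7.27%) and the cAMP response element in 1, Trim26 (3.12%, against 1.59%). The glucocorticoid receptor core was in the windows of Trim13 and Trim72 (6.25%, against 17.5%). The share of G and C letters ran from 34.8% (Trim59) to 77.6% (Trim8) in the member windows. Most of these windows lay above the median of 51.2% over all promoters, and the part of this share in the motif counts was not tested.

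The IRF core was found in 6 members, Trim8, Trim21, Trim25, Trim26, Trim36 and Trim44 (18.8%, against 23.3%). Trim21 is printed because 2 overlapping copies lie 16 to 3 bases before its start, in capitals at the end of the sequence.
Trim21, chr1:166399372-166399621 (minus strand, GRCr8): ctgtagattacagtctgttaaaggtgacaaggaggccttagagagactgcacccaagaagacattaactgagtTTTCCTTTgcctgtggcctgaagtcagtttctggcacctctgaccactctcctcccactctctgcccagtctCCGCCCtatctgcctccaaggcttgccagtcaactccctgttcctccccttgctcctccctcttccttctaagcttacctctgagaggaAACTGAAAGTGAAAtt
The windows of Trim34 and Trim30c held 0 matches of any of these motifs. A match is a description of letters, not of binding, and no sequence was compared with the expression values by a test.

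Some members lie side by side or overlap other genes in RefSeq. Trim41 and Trim7, Trim17 and Trim11, and Trim47 and Trim65 are neighbours with no protein-coding gene between them, and Trim15 and Trim26 overlap. In all, 10 of the 38 members overlap another protein-coding gene in that annotation. The sources used here do not say whether counting used strand, so reads could be shared there. Trim37 overlaps Ppm1e, a phosphatase gene at 39.2 RPKM in controls against 26.8 in ELS (log2 ratio -0.46 ± 0.25, SE; adjusted p = 0.321), opposite in sign to Trim37. Trim32 lies within Astn2, a neuronal adhesion gene at 6.19 and 6.48 RPKM (log2 ratio 0.06 ± 0.08, SE; adjusted p = 0.709), far below the level of Trim32. Trim36, the member with every ELS library below the controls, overlaps Rpl31l16, for which no value was found under that symbol.

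The partners of TRIM ligases were read from 6 lists, and 0 of their members had an adjusted p under 0.05 (limma, all 10 libraries). The ubiquitin activating and conjugating enzymes, which hand ubiquitin to the RING finger, had a log2 ratio above 0 in 23 of 27 tested genes, against 50.6% of all genes, with a median of 0.07. At an unadjusted p under 0.05 there were 9 higher and 1 lower (Ube2d1, named after its value was seen), against 10.1% and 10.3% of all genes. Ube2o was at 32.5 ± 2.28 RPKM in controls against 39.8 ± 3.42 in ELS (log2 ratio 0.29 ± 0.07, SE; adjusted p = 0.133), Ube2d3, a broad partner of RING ligases, at 77.8 ± 3.91 and 86.7 ± 4.03 (0.16 ± 0.05; adjusted p = 0.138), and Ube2q2 at 23.8 ± 1.64 and 26.9 ± 1.09 (0.17 ± 0.05; adjusted p = 0.142).

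Selective autophagy genes, the pathway in which TRIM23 works, had a log2 ratio above 0 in 16 of 20 tested genes, against 50.6% of all genes, with a median of 0.06 on the log2 scale. At an unadjusted p under 0.05 there were 6 higher and 1 lower, against 10.1% and 10.3% of all genes. In 3 of the 20, Wipi2, Sqstm1 and Optn, every ELS library lay above every control, against 3.08% of all genes. The 1 lower gene was Tfeb (log2 ratio -0.34), and it and Optn are named after their values were seen. Tbk1, the gene of the kinase that TRIM23 switches on, was at 10.6 ± 0.842 RPKM in controls against 10.9 ± 0.322 in ELS (log2 ratio 0.05 ± 0.06, SE; adjusted p = 0.691). It is also counted in the innate sensing list below and is named after its value was seen. Sqstm1, the cargo receptor p62, was at 144.1 ± 2.95 RPKM in controls against 158.3 ± 3.93 in ELS (log2 ratio 0.13 ± 0.03, SE; adjusted p = 0.133), Wipi2, which acts on the forming autophagosome, at 20.5 ± 0.808 and 23.9 ± 0.502 (0.23 ± 0.04; adjusted p = 0.133), and Ulk1, the starter kinase, at 16.2 ± 0.850 and 18.6 ± 0.756 (0.20 ± 0.05; adjusted p = 0.133).

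**Figure D5:**
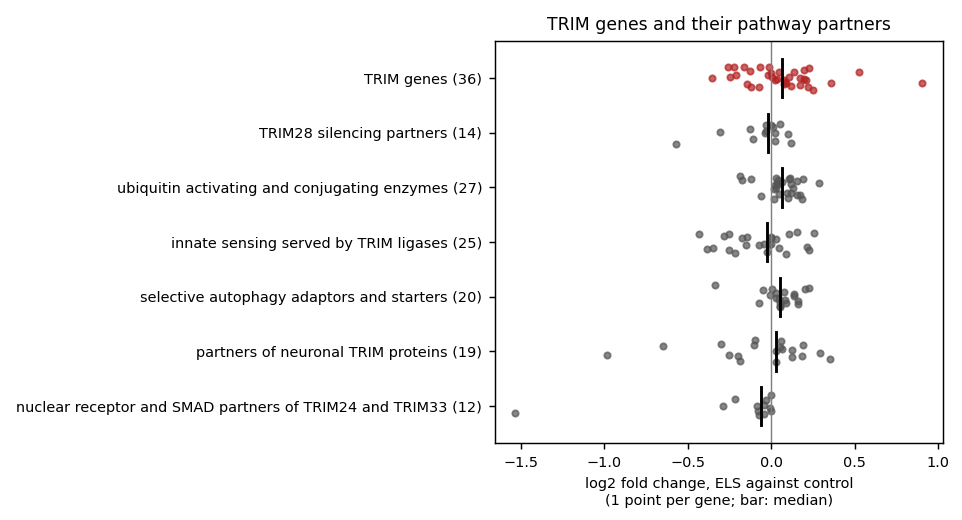
Log2 fold change of ELS against control for the tested TRIM genes (red) and for 6 lists of partner genes (grey), 1 point per gene and a bar at the median, with the number of genes in brackets. The medians lie between -0.06 and 0.07.

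Partners of the neuronal members went both ways, with a log2 ratio above 0 in 11 and below 0 in 8 of 19 tested genes. At an unadjusted p under 0.05 there were 3 higher and 4 lower, against 10.1% and 10.3% of all genes, and the median was 0.03. Vasp, an actin regulator that TRIM9 ubiquitinates, was at 5.43 ± 0.355 RPKM in controls against 4.54 ± 0.242 in ELS (log2 ratio -0.25 ± 0.07, SE; adjusted p = 0.133), and Unc5c, a netrin receptor, at 3.91 ± 0.689 and 2.45 ± 0.442 (-0.65 ± 0.15; adjusted p = 0.133). Snap25, a SNARE protein bound by TRIM9, was at 634.9 ± 59.2 and 778.6 ± 80.7 RPKM (0.29 ± 0.08; adjusted p = 0.133). The other genes counted here, named after their values were seen, were Dcc, Ank3, Dscam and Dlgap1, with log2 ratios of -0.99, -0.19, 0.35 and 0.13.

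The silencing partners of TRIM28 had a median of -0.02, with 0 higher and 2 lower (Fam208a and Cbx5) of 14 tested at an unadjusted p under 0.05, against 10.1% and 10.3% of all genes, shares that also stand behind the counts of the next 2 lists. The lowest p was that of Fam208a, a subunit of the HUSH silencing complex, at 6.11 ± 0.369 RPKM in controls against 4.19 ± 1.21 in ELS (log2 ratio -0.57 ± 0.16, SE; adjusted p = 0.133). Innate sensing genes had 2 higher (Ifnar1 and Traf3) and 2 lower (Zc3hav1 and, named after its value was seen, Irf3) of 25 (median -0.03), with the receptor gene Ifnar1 at 16.6 ± 0.793 and 18.5 ± 0.997 RPKM (0.16 ± 0.05; adjusted p = 0.151) and the antiviral RNA-binding gene Zc3hav1 at 1.62 ± 0.415 and 1.15 ± 0.0667 (-0.43 ± 0.15; adjusted p = 0.171). Nuclear receptor and SMAD partners of TRIM24 and TRIM33 had a log2 ratio below 0 in 12 of 12 tested genes, where 50.6% of all genes had one above 0. They had 0 higher and 2 lower at an unadjusted p under 0.05 and a median of -0.06. Among them Smad4 was at 14.1 ± 0.471 and 11.6 ± 1.52 RPKM (-0.29 ± 0.08; adjusted p = 0.133). The log2 ratio was above 0 in 8 and below 0 in 17 of the 25 innate sensing genes. For the 14 silencing partners of TRIM28 it was above 0 in 6 and below 0 in 8. The TRIM proteins known under other symbols, Mid1, Mid2 and Pml, had 0 at an unadjusted p under 0.05.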

How the data were processed

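The authors deposited 1 table of RPKM values (reads scaled to gene length and library total; whether RPKM or FPKM is not stated) for 16041 genes and 10 libraries. Per the labels' protocols, RNA was column-purified with DNase digestion and made into stranded mRNA libraries, and per the submitters' processing notes STAR, featureCounts and rn6 were used, without versions. Each column matched 1 sample title. Whole reads, gene lengths and totals were recovered from the value steps for 100% of 16015 genes above 0 (tolerance 0.002 reads). After log2(RPKM + 0.1), 14642 genes with at least 0.5 RPKM in 5 libraries were kept, and limma (version 3.58.1, R 4.3.3) compared ELS with control with its trend and robust options in a two-sided test, adjusted by Benjamini-Hochberg. The procedure was tested on simulated data. Alternatives covered the pseudocount, filter, scaling, limma-voom, a replicate block and left-out libraries.

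The members, classes, partner and marker lists were chosen with earlier results of these data known, and the promoter motifs after these values were seen. Named with every library were the 5 members of lowest p per direction, members without overlap between groups, and their most abundant class mates. Partner lists give the 3 genes of lowest p at most. The values of 1 partner gene are not reported here. Promoters came from RefSeq by symbol.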

Additional observations from a re-analysis of the deposited data

Results flagged for a closer look

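Within a group of 5 libraries, 1 library was far from the other 4 in 9 of 76 group-by-gene checks of the 38 TRIM genes, where chance flags about 1 in 20, or 3.8. Control replicate 4 accounted for 6 of the 9. It was highest for Trim35, at 51.1 RPKM against 42.0 to 42.5 in the other controls, and for Trim24, at 6.76 against 6.27 to 6.32. The same library was lowest for Trim54 (0.579 RPKM against 6.71 to 7.88), Trim32 (18.9 against 23.3 to 24.2), Trim3 (23.3 against 27.1 to 28.0) and Trim45 (1.80 against 2.70 to 3.05).

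In the ELS group, replicate 2 was low for Trim32, at 23.6 RPKM against 26.4 to 27.4, replicate 3 for Trim36, at 1.24 against 1.56 to 1.66, and replicate 4 for Trim55, at 0.197 against 0.319 to 0.365 on 11 reads.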

How the results depend on the processing

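Over 21 alternatives, 30 of the 36 tested members kept their direction wherever they were tested, and Trim8, Trim11, Trim17, Trim25, Trim28 and Trim35 did not. Trim16 and Trim21, among the 30, were tested in 20 of the 21. Of the 13 members followed, Trim35 turned to a log2 fold change of 0.021 with sample weights and 0.0457 without ELS replicate 2 and control replicate 4, and ran from -0.0288 to 0.0417 (without control replicate 4) when each library was left out. Leaving out 1 library changed the sign of the log2 fold change or moved it by over 1.5 times in 27 of the 36 tested members, but not in Trim3, Trim23, Trim30c, Trim32, Trim34, Trim36, Trim37, Trim41 and Trim59. The count of all genes past an adjusted p of 0.05, 0 with all libraries, was 1074 with sample weights, 1116 without both libraries, and 0 to 444 when each library was left out (444 without ELS replicate 2, 1 without ELS replicate 5). For the members the counts were 2 with sample weights (Trim3 and Trim23), 4 without both libraries (Trim3, Trim23, Trim32 and Trim7), and 0 to 1 when each was left out (Trim23, without ELS replicate 2). At an unadjusted p under 0.05, leaving out each library gave 6 to 10 members, 4 to 7 of them higher and 2 to 4 lower. The share of all genes in these fits, in either direction, ran from 14.6% to 22.6%, against 20.4% with all libraries. Trim23, Trim37, Trim3, Trim32 and Trim36 were under 0.05 in all 21 alternatives, Trim30c in 19, Trim7 in 18, Trim59 in 13, Trim34 in 11 and Trim41 in 10. The 2 members lower with the replicate block, against 4 without it, were Trim30c and Trim36, and 0 passed the adjusted threshold. With the block 17.1% of all genes were under 0.05 in either direction, against 20.4% without it. Same-numbered libraries shared only a number (correlations of -0.08 to 0.07 between their deviations), and 1 of 5 controls matched its own number best. The cause of these moves was not tested.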
